A study of Mus musculus with 2 samples.

Results

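The genes of 9 enzymes that make glucose in the liver or move it into and out of glycogen were followed in 2 single-cell RNA libraries of mouse liver. The genes were Pck1, G6pc, Fbp1, Pcx, Pklr, Gys2, Pygl, Gbe1 and Ugp2. They were found by gene symbol, and all 9 were present among the 32285 genes listed in each library. One library was labelled WT and came from liver. The other was labelled N-LKO and came from liver together with tumor of mice in which albumin-Cre, active in hepatocytes, removed Nus1, the gene for NgBR. NgBR works as part of the cis-prenyltransferase that makes dolichol, the lipid that carries sugars for protein glycosylation. The mice were on a C57BL6 background, and both groups had eaten the same fat-rich diet for 16 weeks. The titles call it HFD and the treatment labels call it WD. The study reports WD, its diet high in both fat and cholesterol, for the single-cell work. The study worked with male mice, and whether the animals had eaten before the livers were perfused is not given in the sources used here, and neither are the alleles of the WT mice nor the number of animals behind each library. Hepatocytes and nonparenchymal cells were mixed for WT, and tumor cells were added to the mixture for N-LKO. Genotype, tumor tissue and library cannot be told apart, and each group is 1 library, so every interval below covers counting error only and no p-value was computed.

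In the fasted liver, gluconeogenesis turns lactate, alanine and glycerol into glucose. Pcx (pyruvate carboxylase) makes oxaloacetate from pyruvate in mitochondria, Pck1 (cytosolic phosphoenolpyruvate carboxykinase) turns oxaloacetate into phosphoenolpyruvate, Fbp1 (fructose-bisphosphatase) removes a phosphate from fructose bisphosphate, and G6pc (the catalytic subunit of glucose-6-phosphatase) releases free glucose. Pklr, the liver pyruvate kinase, runs the opposite way as the last step of glycolysis. Glucose is stored through Ugp2, which makes UDP-glucose, Gys2, the liver glycogen synthase, and Gbe1, the branching enzyme, and it is released from glycogen by Pygl, the liver phosphorylase. Glucagon and glucocorticoids raise Pck1 and G6pc transcription, and insulin lowers it. Gluconeogenesis is strongest in the periportal part of the liver lobule.

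The upstream sequences of Pck1 and G6pc are shown because these are the classic hormone-regulated promoters of the pathway and because the results below turn on these 2 genes. Both were read from the RefSeq promoter table for GRCm38.p6, on the forward strand, and stop before the first annotated exon. The Pck1 stretch is chr2:173152823-173153047 and the G6pc stretch is chr11:101367466-101367560. Capitals mark TGACGT on either strand, the core of the cyclic AMP response element, in Pck1, and TGTTTT on either strand, the core of the insulin response sequence, in G6pc.
Pck1: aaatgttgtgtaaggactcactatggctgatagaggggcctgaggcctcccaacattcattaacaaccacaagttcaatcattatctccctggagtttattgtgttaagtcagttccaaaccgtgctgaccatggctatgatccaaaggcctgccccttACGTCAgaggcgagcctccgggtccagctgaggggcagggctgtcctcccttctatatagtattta
G6pc: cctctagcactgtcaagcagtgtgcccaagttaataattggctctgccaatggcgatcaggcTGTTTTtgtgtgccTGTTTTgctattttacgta
The capitals begin at −91 in Pck1 and at −188 and −174 in G6pc, counted from the RefSeq start. A further TGTTTT match of G6pc lies beyond the printed stretch. Of 32851 promoter windows in that table, 7.51% hold TGACGT and 22.1% hold TGTTTT on either strand. Entries were found for 8 of the 9 genes, in 11 windows, of which 1 held TGACGT and 2 held TGTTTT. A match of letters is a description and no measure of binding.

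The WT library held 85522287 UMIs over 100171 barcodes and the N-LKO library 87575064 over 90147, and 18430 and 19854 cells were kept. Cells were clustered without the 9 genes and their pathway lists, and classes were named from marker lists. Hepatocyte-like cells numbered 9938 in WT and 4197 in N-LKO, with medians of 1519 and 1788 UMIs. Hepatocyte markers summed to 58120 CPM (UMIs scaled to a class total of 1e+06) in WT against 40240 CPM in N-LKO. Different clusters held most of the class in each library, as described below. Nus1 stood at 73.1 CPM (69.0 to 77.3) in WT against 34.6 CPM (30.8 to 38.7) in N-LKO hepatocyte-like cells. The deleted exon is the first of the gene while the assay reads the 3′ end, so this level is no check of the deletion. The libraries shared 121 barcode sequences among the kept cells, 0.657% of WT and 0.609% of N-LKO.

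G6pc showed the largest difference of the 9 genes between the libraries in hepatocyte-like cells. Its level was 733 CPM (720.3 to 746, 95% Poisson interval) in WT against 315 CPM (303 to 327) in N-LKO, from 12295 and 2742 UMIs. The log2 ratio of N-LKO over WT was −1.22 (−1.28 to −1.16), which is 2.33-fold lower in N-LKO. G6pc was the only one of the 9 genes past 2-fold in either direction. Among 10644 genes with at least 5 CPM in 1 library, 2.42% were at least 2-fold lower in N-LKO and 22.3% were at least 2-fold higher.

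The other gluconeogenic enzymes were less different. Pck1 measured 1038 CPM in WT against 759 CPM in N-LKO, and the log2 ratio was −0.45 (−0.49 to −0.41). Fbp1 measured 831 and 519.6 CPM, and the log2 ratio was −0.68 (−0.73 to −0.63). Pcx went the other way, with 157 CPM in WT, 238 CPM in N-LKO and a log2 ratio of 0.60 (0.52 to 0.69). The median log2 ratio over these 4 genes was −0.56, against 0.40 over all expressed genes. Summed hepatocyte markers were also lower in N-LKO, at 58120 CPM in WT against 40240 CPM. Whether the 4 genes differ more than hepatocyte genes in general was not tested. Pklr, on the glycolytic side, stood at 77.8 CPM in WT against 71.5 CPM in N-LKO, and the interval of its log2 ratio, −0.26 to 0.02, held 0.

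Among the glycogen enzymes, Pygl was lower in N-LKO and Gbe1 higher. Pygl measured 375 CPM in WT against 239 CPM in N-LKO, and the log2 ratio was −0.65 (−0.72 to −0.58). Ugp2 measured 525 and 408 CPM, and the log2 ratio was −0.36 (−0.42 to −0.31). Gbe1 measured 433 CPM in WT against 684 CPM in N-LKO, and the log2 ratio was 0.66 (0.61 to 0.71). Gys2 measured 70.4 CPM in WT against 67.7 CPM in N-LKO, and the interval of its log2 ratio, −0.20 to 0.09, held 0. The median log2 ratio of the glycogen enzymes was −0.21. In all, 5 of the 9 genes had intervals below 0, 2 had intervals above 0, and 7 lay below the median of all expressed genes, with Pcx and Gbe1 above it. By point value 7 of the 9 were below 0, against 29.2% of all expressed genes. The share of all genes with intervals clear of 0 is not given here, so the interval counts have no such yardstick.

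Several of these differences rested on one N-LKO cluster rich in Malat1, which entered the class only after the naming score was lowered. It raised 3 hepatocyte markers, its leading genes (among them Pdzrn3, Grip1 and Neat1) were not hepatocyte markers, and Alb, the albumin gene, stood at 4099 CPM, against 16320 CPM in the N-LKO cluster rich in Saa1 described below. The WT cluster richest in Malat1 likewise raised 3 hepatocyte markers and was led by other genes, such as Gm31356. Its Alb level was 7518 CPM, against 23960 CPM in the largest WT cluster. Without the 2089 cells of the N-LKO cluster the log2 ratio of G6pc was −1.17, that of Pygl −0.71 and that of Ugp2 −0.38, close to the values above. Pck1 went to −0.037, Fbp1 to −0.22 and Pcx to 0.0055. Gbe1 turned to −0.44, while Pklr and Gys2 went to −0.85 and −0.70. The WT Malat1-rich cluster was kept in these values, and 2020 of the 2108 N-LKO cells left were in the Saa1-rich cluster.

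**Figure D1:**
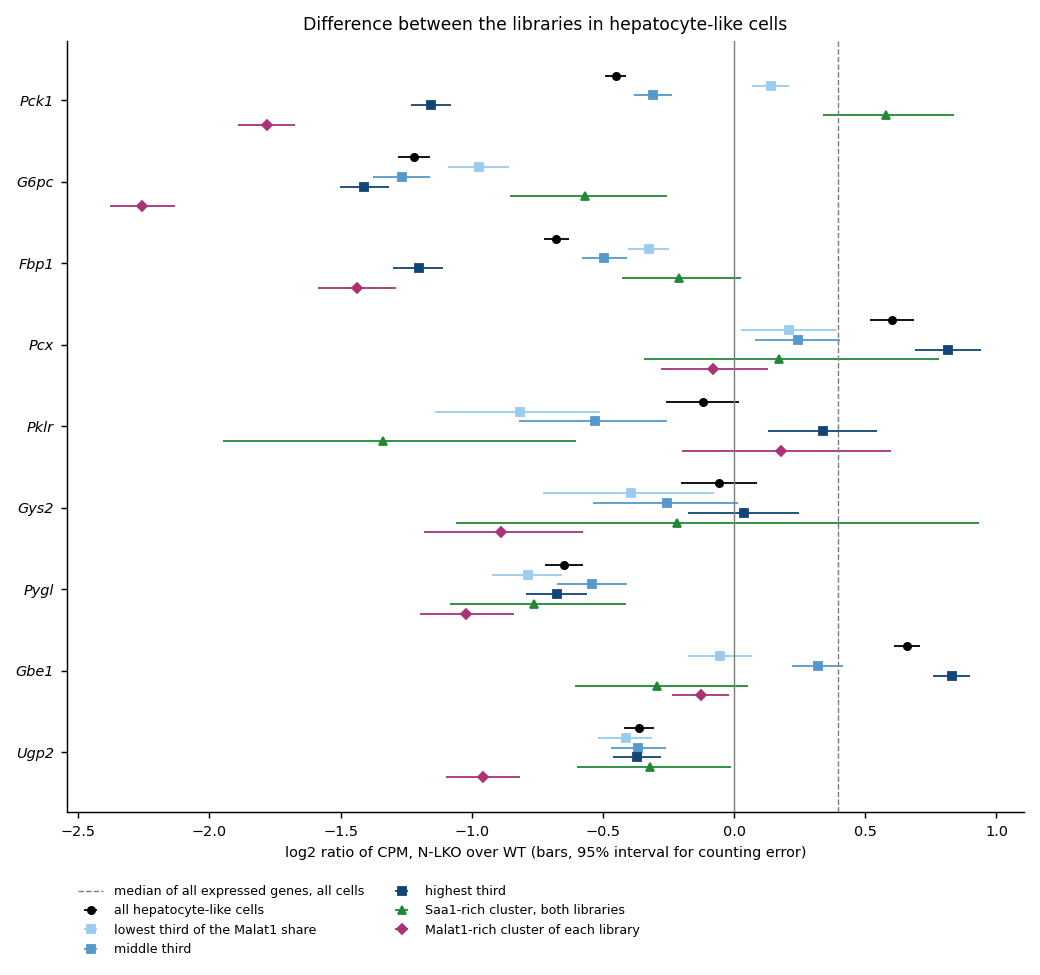
Log2 ratio of CPM (horizontal, N-LKO over WT, bars for 95% counting intervals) of each gene in all hepatocyte-like cells, in tertiles of the Malat1 share, and in 2 pairs of hepatocyte clusters. G6pc lies left of 0 in every set, while Pck1 runs from −1.78 to 0.58.

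The 2 genes that were higher in N-LKO are the longest of the 9. Gbe1 spans 255.8 kb (chr16:70313949-70569716, forward strand, GRCm38) and Pcx spans 111 kb (chr19:4510472-4621752, forward strand), while Pck1 spans 6.23 kb (chr2:173153048-173159273, forward strand) and G6pc 10.3 kb (chr11:101367561-101377903, forward strand). Pklr lies at chr3:89136142-89146784 on the forward strand. Fbp1 (chr13:62864753-62888282), Gys2 (chr6:142422613-142473109), Pygl (chr12:70190811-70231488) and Ugp2 (chr11:21321138-21371201) lie on the reverse strand. Over all expressed genes the median log2 ratio went from −0.12 in the shortest length decile to 1.03 in the longest. Set beside the median of its own decile, each of the 9 genes was lower, with differences from −0.20 for Pklr to −1.30 for G6pc on the log2 scale. This difference was −0.27 for Pcx and −0.37 for Gbe1. By construction as many expressed genes lie below a decile median as above it. Summed hepatocyte markers were lower in N-LKO too, and whether the 9 genes differ from other hepatocyte genes of like length was not tested. Malat1, an RNA held in nuclei, took 9154 CPM in WT against 11680 CPM in N-LKO hepatocyte-like cells, and Neat1, another nuclear RNA, 602 and 1795 CPM. Mitochondrial genes took 19.7% of UMIs in WT and 15.02% in N-LKO. The part of nuclear RNA in these differences was not tested.

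**Figure D2:**
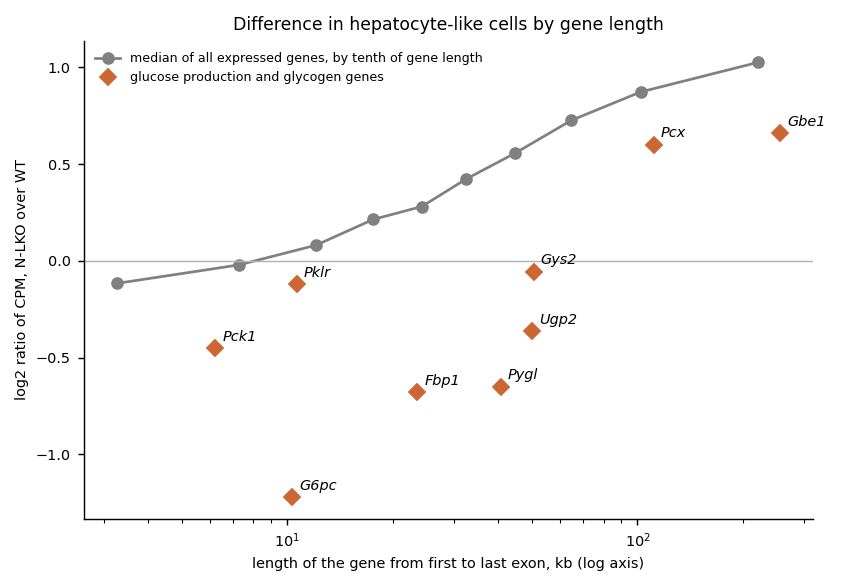
Log2 ratio of CPM in hepatocyte-like cells (vertical, N-LKO over WT) against gene length in kb (log axis), for the 9 genes and for the median of each length decile of all expressed genes. The gray line climbs from −0.12 to 1.03, and every one of the 9 genes lies under it.

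Hepatocyte-like cells fell into 6 clusters that hardly mixed the libraries. The largest WT cluster held 8185 WT and 65 N-LKO cells. A cluster rich in Saa1, an acute-phase gene, and in Spp1, which encodes osteopontin, held 100 WT and 2020 N-LKO cells. A Malat1-rich cluster held 2089 N-LKO cells and 1 WT cell, and its counterpart in WT held 330 WT cells alone. A Malat1-poor cluster held 1170 WT and 20 N-LKO cells, and a cluster led by pericentral genes such as Glul and Cyp2e1 held 152 WT and 3 N-LKO cells.

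G6pc was lower in N-LKO in each pair of clusters that had at least 50 cells on both sides. In WT its level ran from 162 CPM in the Malat1-poor cluster to 1446 CPM in the Malat1-rich one, with 479, 759.8 and 766 CPM in the Saa1-rich, the largest and the pericentral clusters. In the N-LKO clusters of at least 50 cells it lay between 303 CPM in the Malat1-rich cluster and 381 CPM in the 65 cells of the largest WT cluster. The WT clusters thus spread widely and the N-LKO clusters did not, and of these clusters the WT Malat1-poor one alone lay below the N-LKO values. In the 20 N-LKO cells of the Malat1-poor cluster it was 182.5 CPM (59.3 to 426). Within the Saa1-rich cluster, the closest match of libraries by Malat1 (4427 CPM in WT against 4611 CPM in N-LKO), the log2 ratio was −0.57 (−0.86 to −0.26), under 2-fold. Between the Malat1-rich clusters it was −2.26 (−2.38 to −2.13).

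Pck1 changed direction from cluster to cluster. In the Saa1-rich cluster it was higher in N-LKO, with 666 CPM in WT against 997 CPM in N-LKO, and the log2 ratio was 0.58 (0.34 to 0.84). In the 65 N-LKO cells of the largest WT cluster it reached 1472 CPM (1259 to 1711), against 1045 CPM in WT. Between the Malat1-rich clusters it was lower in N-LKO, with 1610 CPM in WT against 468 CPM in N-LKO, and the log2 ratio was −1.78 (−1.89 to −1.67). Of the clusters with at least 50 cells, the pericentral WT cluster had the least, 355 CPM (283.5 to 440.0).

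The remaining genes followed either pattern in part. Fbp1 stood at 819 CPM in WT against 711 CPM in N-LKO in the Saa1-rich cluster, where the interval of its log2 ratio held 0 (−0.43 to 0.03), and was lower in the N-LKO Malat1-rich cluster, at 297 CPM against 804 CPM. Pygl was lower in N-LKO in both pairs, with log2 ratios of −0.76 (388 and 229.9 CPM) in the Saa1-rich cluster and −1.02 (507 and 249.8 CPM) in the Malat1-rich pair. Ugp2 moved the same way, with log2 ratios of −0.32 (−0.60 to −0.01) and −0.96 (−1.10 to −0.82). Pklr was lower in N-LKO in the Saa1-rich cluster, at 105 CPM from 22 UMIs in WT and 42.5 CPM in N-LKO, and the log2 ratio was −1.34 (−1.95 to −0.60). In the Malat1-rich pair its interval, −0.20 to 0.60, held 0.

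Gbe1 and Pcx, higher in N-LKO over the whole class, had no interval above 0 within these pairs. Gbe1 measured 393 CPM in WT against 322.5 CPM in N-LKO in the Saa1-rich cluster (log2 ratio −0.61 to 0.05), and 1208 and 1106 CPM in the Malat1-rich pair, and the log2 ratio was −0.13 (−0.24 to −0.02). Pcx measured 139 and 159 CPM in the Saa1-rich cluster and 349 and 331 CPM in the Malat1-rich pair, and both intervals held 0. Gys2 measured 47.9 and 43.2 CPM in the Saa1-rich cluster, an interval of −1.06 to 0.93, and 177 and 96.1 CPM in the Malat1-rich pair, and the log2 ratio was −0.89 (−1.18 to −0.58). In the largest WT cluster Gbe1 was lower in the 65 N-LKO cells, at 199 CPM against 414 CPM. Among clusters of at least 50 cells, Gbe1, Pcx and Gys2 were each highest in the Malat1-rich cluster of either library.

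Between the Malat1-rich clusters 4 of the 9 genes, Pck1, G6pc, Fbp1 and Pygl, were at least 2-fold lower in N-LKO, where 11.5% of 11419 genes were, and 0 were at least 2-fold higher, against 17.5%. The median of all genes in that pair was 0.07. These clusters were not alike in Malat1, with 35480 CPM in WT against 19840 CPM in N-LKO. In the Saa1-rich cluster 1 of the 9, Pklr, was at least 2-fold lower, against 11.8% of 9978 genes, and 0 were at least 2-fold higher, against 12.2%.

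**Figure D3:**
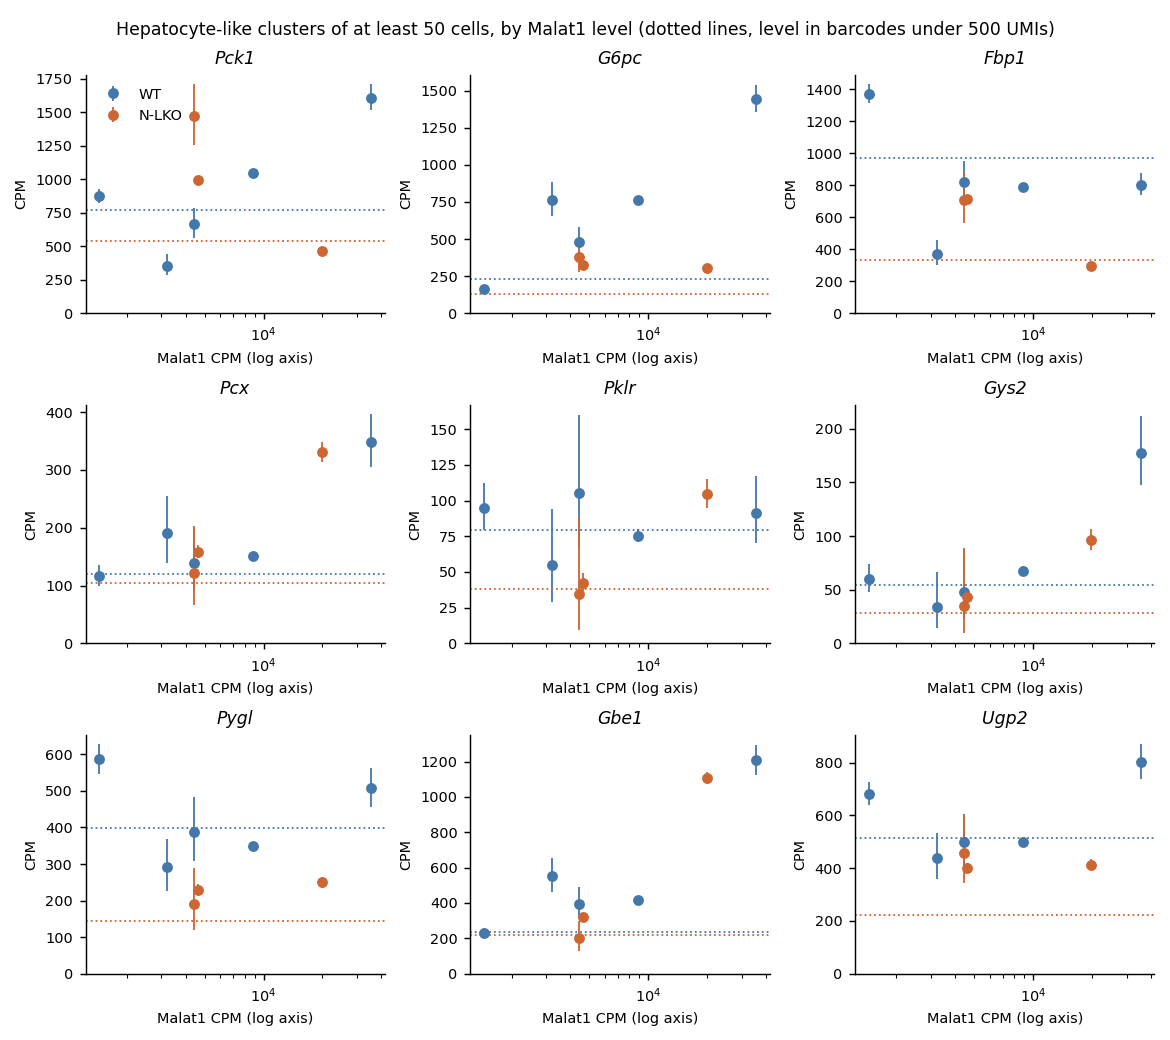
CPM of each gene (vertical, bars for 95% Poisson intervals) in hepatocyte-like clusters of at least 50 cells against the Malat1 level of the cluster (log axis), with dotted lines at the level in barcodes under 500 UMIs. WT G6pc ranges from 162 to 1446 CPM while the N-LKO points lie between 303 and 381 CPM.

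Cells were also compared in tertiles of the Malat1 share, a division added after the clusters had been seen, bounded at 0.392% and 1.11% of UMIs and both libraries weighted equally. G6pc measured 564, 769 and 879.5 CPM in WT from the lowest to the highest tertile, and 287, 319.7 and 331 CPM in N-LKO. Its log2 ratio was −0.97, −1.27 and −1.41, so the N-LKO value was lower in each tertile. Pck1 measured 908.5, 1033 and 1198 CPM in WT and 1000, 834 and 538 CPM in N-LKO. Values in WT thus went up with Malat1 while those in N-LKO went down.

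Fbp1, Pygl and Ugp2 were lower in N-LKO in each tertile, with intervals below 0 in all 3. Fbp1 had log2 ratios of −0.33, −0.49 and −1.20 from the lowest to the highest tertile. Pygl had −0.79, −0.54 and −0.68, and Ugp2 −0.41, −0.36 and −0.37. Pcx was higher in N-LKO in each tertile, with log2 ratios of 0.21, 0.24 and 0.81. Gbe1 had log2 ratios of −0.05, 0.32 and 0.83, and the first of these intervals held 0. Pklr had −0.82, −0.53 and 0.34, each interval clear of 0. Gys2 had −0.39, −0.26 and 0.04, and the last 2 intervals held 0.

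The genes were also described along the axis of the liver lobule. Cells were ranked within each library by the share of periportal markers (among them Cyp2f2 and Hal) in all zonation markers, none of them among the 9 genes. Of the hepatocyte-like cells, 94.9% held at least 3 such UMIs in WT but 67.9% did in N-LKO, and the others were left out. Pck1 was higher in the periportal than in the pericentral tertile, at 1194 and 849 CPM in WT and at 1013 and 591 CPM in N-LKO. The log2 difference between these ends was 0.49 (0.44 to 0.55) in WT and 0.78 (0.68 to 0.88) in N-LKO.

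G6pc and Fbp1 leaned the same way in both libraries. G6pc had a periportal difference of 0.28 (0.22 to 0.35) in WT and 0.40 (0.25 to 0.55) in N-LKO on the log2 scale, and Fbp1 0.25 (0.19 to 0.31) and 0.32 (0.20 to 0.44). Ugp2 leaned to the pericentral end, with differences of −0.15 (−0.23 to −0.08) in WT and −0.53 (−0.67 to −0.40) in N-LKO. Pcx, unlike the other gluconeogenic genes, leaned to the pericentral end in WT, at −0.21 (−0.34 to −0.07). Its N-LKO interval, −0.31 to 0.05, held 0. Gbe1 had an interval that held 0 in WT (−0.15 to 0.01) and a difference of −0.13 (−0.24 to −0.02) in N-LKO. Pklr, Gys2 and Pygl had intervals that held 0 in both libraries. The tertiles were cut within each library, so the same label need not mark the same position in the lobule. In the pericentral tertile Glul stood at 1319 CPM in WT against 525 CPM in N-LKO, and Cyp2f2 at 464 and 99.1 CPM. G6pc was lower in N-LKO in each tertile of that name, with log2 ratios of −1.22, −1.14 and −1.10 in the pericentral, middle and periportal tertiles. Pck1 had −0.52, −0.18 and −0.24 in the same order. Malat1 was higher in the periportal than the pericentral tertile, at 9475 and 8534 CPM in WT and 12530 and 9044 CPM in N-LKO, and its part in these differences was not tested.

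**Figure D4:**
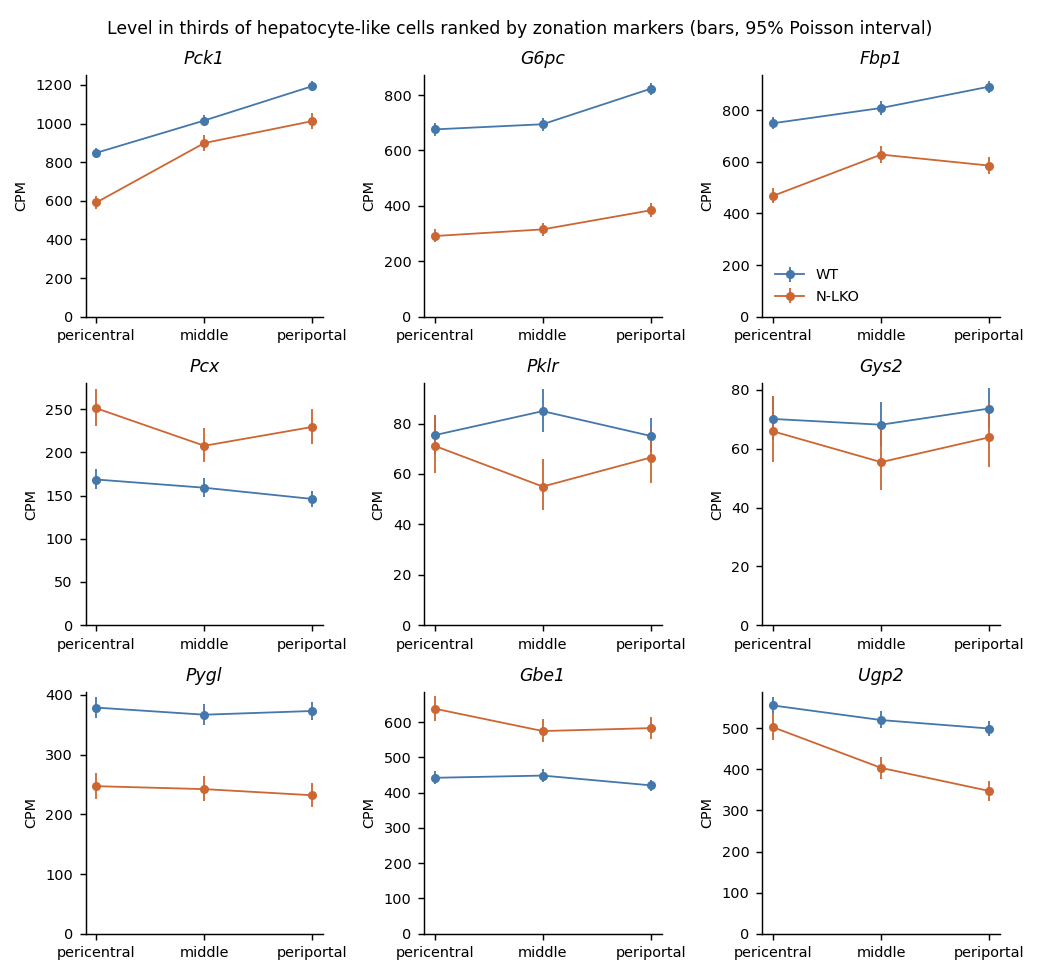
CPM of each gene (vertical, bars for 95% Poisson intervals) in tertiles of hepatocyte-like cells from the pericentral to the periportal end, for WT and N-LKO. Pck1 goes up toward the periportal end in both libraries, from 849 to 1194 CPM in WT and from 591 to 1013 CPM in N-LKO.

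Outside hepatocytes the 9 genes were read in 11 further classes with at least 100 cells in each library. Hepatocyte-like cells had the highest level of all 9 genes in both libraries. The second class had an interval that overlapped theirs for Pklr, Gys2, Pygl and Ugp2 in WT and for Pygl in N-LKO. Below the first place, most neighbors in the order of classes did not differ beyond counting error. G6pc stood out most in WT, at 5.86 times the median of the other classes, and Fbp1 least, at 1.52 times. In N-LKO these figures were 4.16 and 3.48.

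The levels in the other classes were set beside those in free RNA. Barcodes under 500 UMIs, 18526 in WT and 13674 in N-LKO, were taken as the profile of free RNA. The files start at 326 UMIs per barcode in WT and 377 in N-LKO, so these barcodes may hold cells of low depth, hepatocytes included, and the expected levels and shares below are estimates that rest on this choice. In them Pck1 stood at 774 CPM in WT against 536.5 CPM in N-LKO, Fbp1 at 968 and 334 CPM, and G6pc at 232 and 130.2 CPM. WT Fbp1 was thus higher in free RNA than in hepatocyte-like cells, and so were WT Pygl (399 CPM) and Pklr (79.7 CPM, inside the hepatocyte interval). From hepatocyte markers, free RNA was put at 27.4% to 54.5% of UMIs in the other WT classes and 32.4% to 53.7% in the other N-LKO classes.

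Against the level that this free RNA alone would give, none of the 9 genes had an interval below it in the 11 classes of either library. In WT the ratio of measured to expected level lay between 0.70 and 2.08 for the 9 genes. In N-LKO it reached 3.54 for Gbe1, which had 352 CPM in endothelial-like cells, where 99.4 CPM were expected. Gbe1 was also high in N-LKO T/NK-like cells, at 395 CPM against 116 CPM. Its interval lay above the expected level in 11 of 11 N-LKO classes and 5 of 11 WT classes. That of Ugp2 did so in 11 and 9. Such an excess in N-LKO was not particular to Gbe1 and Ugp2. Pygl had it in 10 N-LKO classes, G6pc in 9, Pcx in 8, and Fbp1 and Gys2 in 7 each. Pck1 had it in 5 and Pklr in 3. The WT counts of these genes were 7, 4, 0, 4, 0, 7 and 2 in the same order. The share over all genes is not given here, so these counts have no such yardstick. Neat1 too was higher in N-LKO, with 974 CPM (222 CPM in WT) for endothelial-like and 979 CPM (156 CPM in WT) for T/NK-like cells. The part of Neat1 was not tested.

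Pygl in neutrophil-like cells, which use glycogen as a fuel, was 364 CPM (272.5 to 476) in WT against 221 CPM (194 to 251) in N-LKO. The expected levels were 217 and 75.7 CPM, and both intervals lay above them. In WT only 106 neutrophil-like cells were kept. Pcx was 2.29 times the expected level in N-LKO endothelial-like cells (111 against 48.4 CPM) and within its counting interval of it in all 11 WT classes.

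**Figure D5:**
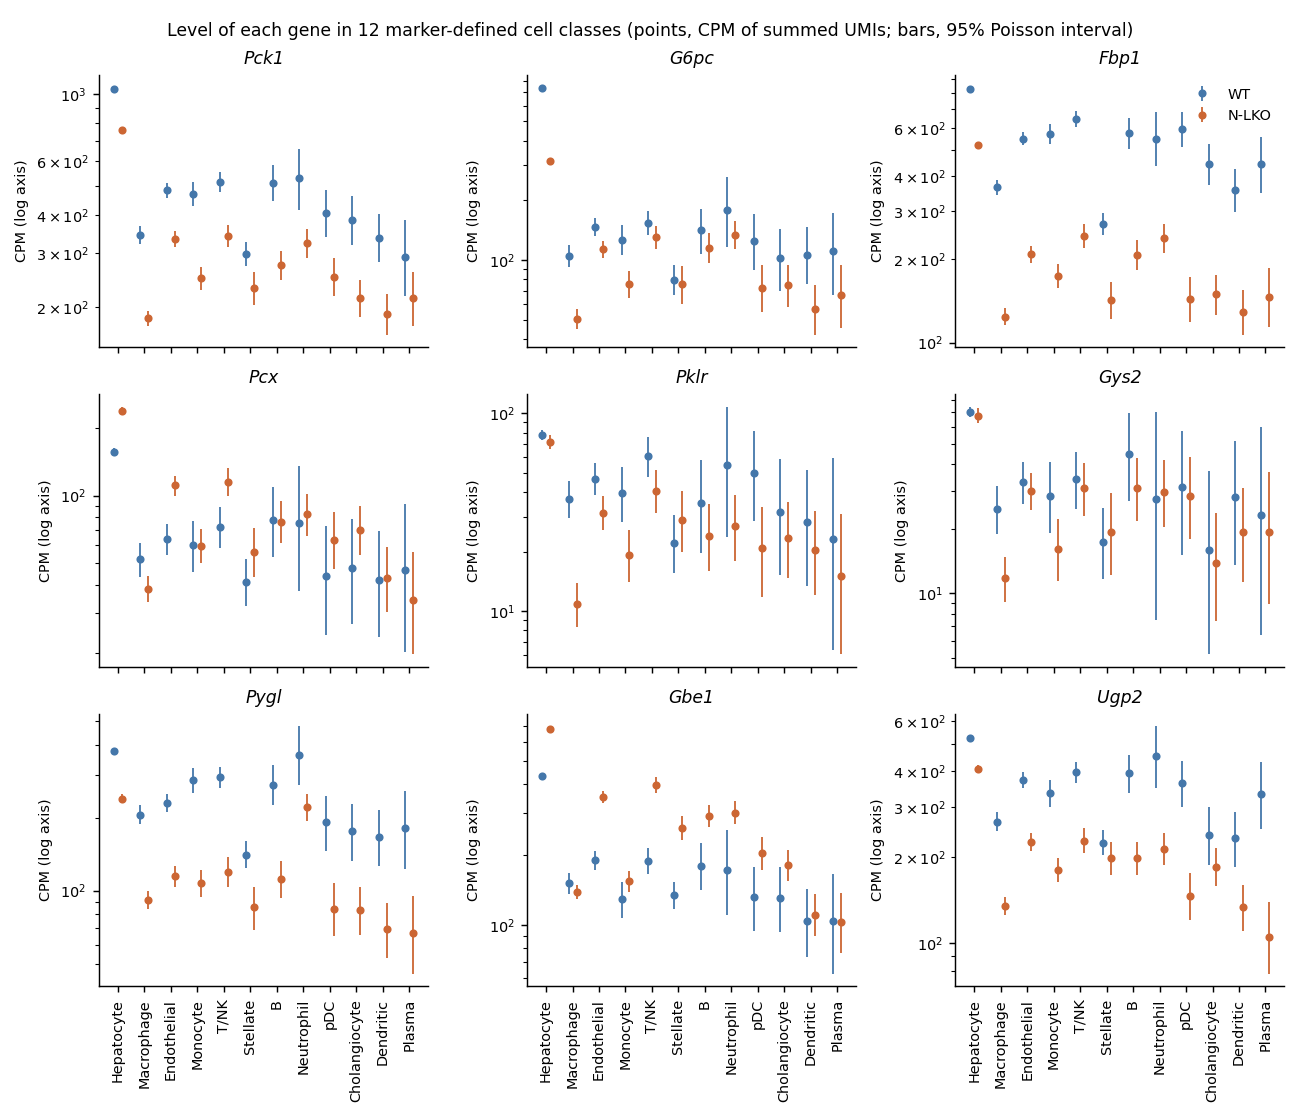
CPM of each gene (vertical, log axes, bars for 95% Poisson intervals) in 12 cell classes of the WT and N-LKO libraries. Hepatocyte-like cells are highest within each library in every panel, and Pygl in neutrophil-like cells (364 CPM in WT, 221 CPM in N-LKO) comes closest to them.

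The share of free RNA within hepatocyte-like cells themselves, was put at 85.2% in WT from 28 markers of other cell types and at 39.0% in N-LKO from 38. All 106 markers of other types summed to 2202 CPM in WT hepatocyte-like cells and 2102 CPM in WT free RNA, and to 2740 and 4047 CPM in N-LKO. In hepatocyte-like cells 2 of them were at 0 for WT, and 5 for N-LKO. With that share removed, G6pc remained lower in N-LKO, at a log2 ratio of −2.32, and Pck1 at −0.76, while Pygl and Ugp2 turned to 1.08 and 0.60. WT Fbp1 was then within its counting interval of the level expected from free RNA.

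The share of cells with at least 1 UMI was compared after each cell was thinned to 1000 UMIs, the minimum of every kept cell. Among hepatocyte-like cells, 47.8% held G6pc in WT (46.9% to 48.8%, exact binomial interval) and 23.3% did in N-LKO (22.1% to 24.6%), against 63.0% and 38.2% before thinning. In T/NK-like cells, which do not release glucose, it was found in 11.98% and 9.61%. For Pck1 the hepatocyte-like shares were 61.9% (WT) and 44.6% (N-LKO), set against T/NK-like shares of 39.1% and 26.8%. For Fbp1 they were 55.0% and 36.3%, with T/NK-like shares of 45.8% and 19.6%. The G6pc and Pck1 shares thus stood above those of the background class in both libraries, and the WT Fbp1 shares were the closest together. Median depths were 1519 and 1788 UMIs in hepatocyte-like and 1165 and 1229 UMIs in T/NK-like cells.

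Of 22 other genes that supply gluconeogenesis or export glucose, 18 passed 5 CPM in hepatocyte-like cells, 2 were at least 2-fold lower in N-LKO (2.42% of all genes were) and 0 at least 2-fold higher (22.3% of all genes were), and their median log2 ratio was −0.35. The 2 were Got2, the mitochondrial aspartate aminotransferase, at 310.4 CPM in WT against 154 CPM in N-LKO, and Gpd1, glycerol-3-phosphate dehydrogenase, at 126 and 59.4 CPM. Slc2a2, the glucose transporter GLUT2, stood at 316 and 230.2 CPM, and Slc37a4, which carries glucose 6-phosphate to G6pc, at 47.1 and 35.0 CPM. In the Saa1-rich cluster Gpd1 was again past 2-fold (log2 ratio −1.10), while Got2 was not (−0.22) and Slc37a4 had a log2 ratio of 1.30, with 100 WT cells behind these values. In the Malat1-rich pair Got2 was past 2-fold (−1.145), while Gpd1 was not (−0.61), and Slc37a4 had −0.76. The isozymes Pck2 and G6pc3 were under 5 CPM in both libraries.

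Of 24 other genes of glycolysis and fructose entry, 18 passed and 5 were at least 2-fold higher, a share near the 22.3% of all genes, so the count says nothing particular of the list. Its median was 0.13, against 0.40 over all genes. The higher ones were the hexokinase Hk2 (3.64 and 17.5 CPM), the phosphofructokinase Pfkp (2.74 and 19.3 CPM), and Pfkfb1, Pfkfb2 and Pfkfb3, which set fructose 2,6-bisphosphate, the signal that favors glycolysis over gluconeogenesis. Pfkfb2 stood at 20.4 CPM in WT against 83.9 CPM in N-LKO. In the Saa1-rich cluster none of these 5 passed 2-fold, with log2 ratios from 0.06 for Hk2 to 0.98 for Pfkfb2, while in the Malat1-rich pair 4 did, all but Pfkfb1 (0.76). WT held 208725 UMIs in the Saa1-rich and 676541 in the Malat1-rich cluster. The ratios of genes as low as Hk2 and Pfkp thus rest on few WT UMIs, and no interval is given. In the largest WT cluster, with 65 N-LKO cells, all 5 passed 2-fold, from 1.17 for Pfkfb1 to 2.05 for Pfkp. Those 65 cells held 115474 UMIs in all, against 14221115 in WT. At such levels a ratio there can rest on a single UMI, so these values are not a measure of a difference. Pkm, the pyruvate kinase of other tissues, was at 9.96 and 17.9 CPM.

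Of 22 other genes of glycogen handling, 18 passed, 1 was at least 2-fold lower, against 2.42% of all genes, and 4 at least 2-fold higher, a share like the 22.3% of all genes. Their median was 0.66. Ppp1r3c, a subunit that brings protein phosphatase 1 to glycogen, was lower, at 75.7 CPM in WT against 19.3 CPM in N-LKO, and the log2 ratio was −1.97 (−2.21 to −1.74). It was also lower in the Saa1-rich cluster (−1.52) and in the Malat1-rich pair (−2.02). The higher ones were at low levels, Pygb, the brain phosphorylase, at 2.51 and 15.5 CPM, Gys1, the muscle glycogen synthase, at 4.12 and 9.76 CPM, Gyg, the glycogen primer, at 5.31 and 10.8 CPM, and Phka2, a phosphorylase kinase subunit, at 18.6 and 46.8 CPM. In the Saa1-rich cluster Phka2 alone of these 4 was past 2-fold (log2 ratio 1.54), with 0.72 for Gyg, −0.14 for Gys1 and −0.19 for Pygb. In the Malat1-rich pair Pygb alone was (5.15), with 0.63 for Phka2, −0.33 for Gyg and −0.62 for Gys1. WT held 208725 UMIs in the Saa1-rich and 676541 in the Malat1-rich cluster. A gene as low as Pygb can have few or no WT UMIs in either. The size of its ratios, 5.15 included, is thus not a measure of a difference. The ratios of Gyg and Gys1 also rest on few WT UMIs, and no interval is given. In the largest WT cluster, with 65 N-LKO cells, Pygb had 2.23, Phka2 0.72, Gys1 0.20 and Gyg −0.11. Those 65 cells held 115474 UMIs in all, so genes at such levels can have few or no UMIs there. Where a gene has none, the fraction of a UMI added to each sum sets the ratio. These values are thus not a measure of a difference, and a value near 0 does not show an equal level.

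Of 19 transcriptional and hormonal regulators, all passed, 2 were at least 2-fold lower (2.42% of all genes were) and 2 at least 2-fold higher (22.3% of all genes were), with a median of 0.20. Tat, a glucocorticoid-induced aminotransferase, was lower, at 873 CPM in WT against 306 CPM in N-LKO, and so was Cebpa, a liver transcription factor, at 94.6 and 45.0 CPM. Foxo1, the insulin-restrained activator of G6pc and Pck1, was higher, at 62.8 and 212 CPM, and so was Creb1, which binds the cyclic AMP response element, at 35.6 and 74.9 CPM. Foxo1 spans 84.9 kb and Creb1 71.9 kb, lengths at which the median of all genes was also above 0. The log2 ratio of Foxo1 was 1.80 in the Saa1-rich cluster, 0.61 in the Malat1-rich pair and −0.06 in the largest WT cluster, where 65 N-LKO cells stood against WT. Creb1 had −0.31, 0.81 and −0.24 in the same order. Tat (−0.32) and Cebpa (−0.16) were within 2-fold in the Saa1-rich cluster. Tat had −2.69 in the Malat1-rich pair and −0.94 in the largest WT cluster, and Cebpa −0.59 and −1.295. Between the Malat1-rich clusters the medians of the 4 lists were −0.73, −0.22, −0.22 and −0.61 in the order given.

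The genes most like each of the 9 were named by the Pearson correlation of log2(CPM + 5) over 42 profiles, each a cluster in 1 library with at least 50 cells. The profiles share free RNA and library, so these values are a description. Fbp1 was like Uox (r = 0.97), Ugp2 most like Uox (0.96) and Cdo1 (0.95), and G6pc most like Elovl5 (0.96) and Insig2 (0.95). Pygl was most like Baat (0.93) and Ugp2 (0.92), and Pck1 most like Tdo2 (0.91) and Uox (0.90). Pcx was most like Gm20319 (0.92) and Slc27a2 (0.92), Pklr most like Clpx and Lactb2 (both 0.91), Gys2 most like Necab1 (0.92) and Abcg5 (0.90), and Gbe1 most like Osbpl1a and Abcc2 (both 0.91).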

How the data were processed

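Per the labels and the file headers, the authors counted UMIs with Cell Ranger 7.1.0 from droplet libraries that tag the 3′ end of transcripts; the submitters' notes also name Seurat and the build mm9. The authors deposited raw counts, in whole UMIs for each gene in each barcode, and nothing had been scaled. Coordinates given here are of GENCODE M21 and RefSeq on GRCm38 and were not used for counting.

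Barcodes with at least 1000 UMIs, 400 genes and at most 30% mitochondrial UMIs were kept, and doublets were removed at a Scrublet score of 0.25 (scanpy 1.11.5), chosen after seeing the data. Both libraries were clustered together on 2000 variable genes, 30 principal components and leidenalg 0.10.2 at a resolution of 0.3. The number of components and the resolution are those of the study, which clustered with Seurat. The published cell names were not used, so a difference from the study may come from rebuilt names. A cluster took a name at a marker score of at least 0.15 with 3 raised markers; this score was lowered after seeing the data, which brought the N-LKO Malat1-rich cluster into the hepatocyte-like class. Mixed clusters (5.57% of WT and 14.1% of N-LKO cells) were left out.

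UMIs were summed per class and library and scaled to a class total of 1e+06 (CPM). Intervals are exact Poisson, conditional binomial (ratios, with 0.5 UMI added to each sum for the point value) or Clopper-Pearson, at 95%, and cover counting error only. With 1 library per group no test was run. The 9 genes, the lists and the alternatives were chosen with earlier results of these data known. The text names the 9 genes, the pathway genes past 2-fold at 5 CPM or more, their isozymes and the 2 genes most like each; Slc2a2 and Slc37a4 were named after their values were seen. Some genes that this rule takes in are not reported here. The ratio and interval code was tested on simulated data.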

Additional observations from a re-analysis of the deposited data

Results flagged for a closer look

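The difference between the libraries in Pck1 pointed in opposite directions at the 2 ends of the Malat1 share among hepatocyte-like cells. Its log2 ratio of N-LKO over WT was 0.14 in the lowest tertile and −1.16 in the highest, each with an interval on its own side of 0. Pklr crossed the other way, with −0.82 in the lowest and 0.34 in the highest tertile. With 1 library per group the change in direction was not tested, and the tertiles were set after the clusters had been seen.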

How the results depend on the processing

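With 1 library per group no replicate could be left out and no value has a test. The median of the gluconeogenic genes, −0.56, stayed below 0 under 15 alternatives, from −1.34 with a mitochondrial limit of 10% to −0.10 with free RNA subtracted. It was −0.15 and −0.30 with UMI minimums of 500 and 2000, −0.65 with no mitochondrial limit, −0.43 in the middle quartiles of the Malat1 share, −0.65 in CPM without mitochondrial genes, −0.96 relative to all expressed genes, −0.17 with hepatocytes taken cell by cell, and −0.13 without the N-LKO Malat1-rich cluster, an alternative added later. The median of the glycogen genes, −0.21, turned to 0.33 with free RNA subtracted and was otherwise below 0, at −0.46 and −0.50 with UMI minimums of 500 and 2000, −0.61 with the 10% limit, −0.60 relative to all expressed genes, −0.45 cell by cell and −0.57 without the N-LKO Malat1-rich cluster. Among single genes, Pck1 turned to 0.046 with a minimum of 500 UMIs and 0.14 in the lowest Malat1 tertile, and Pcx to −0.013 with a minimum of 2000. Gbe1 turned to −0.24 and −0.36 with the minimums of 500 and 2000, −0.16 cell by cell, −0.44 without the N-LKO Malat1-rich cluster and −0.054 in the lowest tertile. With free RNA subtracted, Fbp1 turned to 4.74, Pklr to 1.22, Pygl to 1.08 and Ugp2 to 0.60. Of the other gluconeogenic genes G6pc was then −2.32, Pck1 −0.76 and Pcx 0.56. The gluconeogenic median of −0.10 thus lay between genes on opposite sides of 0. Pklr, −0.12 over all hepatocyte-like cells, was −0.89 and −0.83 with the minimums of 500 and 2000 and −0.76 cell by cell. G6pc stayed between −2.32 and −0.97. The tertiles and the cluster poor in Malat1, also left out in turn, were added after seeing the data. Where a value moved, the cause was not tested.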
